A study of Homo sapiens with 9 samples.

Results

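The 35 genes described here act in G2 phase and mitosis, the last stages of the cell division cycle. They are a listed set of regulators, motor proteins, kinetochore proteins and chromosome proteins. The rule that names them uses no measured value, but the list was chosen with earlier results of these data known. All 35 were found among the 58233 gene identifiers of the count files, and all 35 were among the 15440 genes with enough counts to be tested.

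The data are RNA-seq read counts per gene from UPCI-SCC-040, a human cell line of oral squamous cell carcinoma that came from the tongue. There were 9 libraries of total RNA in 3 groups of 3. They came from cells given 5 ng/ml transforming growth factor beta 1 (TGF-β1) for 48 h, from cells given the same dose for 72 h, and from controls without TGF-β1, whose titles carry a time of 0 h. The series concerns prognostic factors in oral squamous cell carcinoma and asks which genes differ in expression after the treatment. TGF-β1 was given in medium lacking fetal bovine serum, penicillin and streptomycin, while the growth medium held all of these. Serum-free medium is not stated for the controls, and the cytokine, the lack of serum and the hours in culture cannot be told apart in any comparison with control. Passages 12, 13 and 8 of the line gave 1 library to every group and are replicates 1, 2 and 3 per the labels. The labels give no sign of separate cultures other than the passage, and p-values therefore measure the spread between these libraries of 1 cell line. No genotype, strain or further agent is given for any group.

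Entry into mitosis is driven by the kinase CDK1 bound to cyclin A or cyclin B. The kinases PLK1, Aurora A and Aurora B then act on spindle poles, kinetochores and the spindle midzone, and the spindle checkpoint holds the anaphase-promoting complex until every chromosome is attached. Transcripts of these genes are low in resting and early cycling cells and peak in G2 and mitosis. Their promoters are known to be repressed by the DREAM complex (MuvB with the pocket proteins p130 or p107 and E2F4) and activated by B-MYB and FOXM1, and many hold a cell cycle homology region and CCAAT boxes that bind NF-Y. In epithelial cells TGF-β is known as an inhibitor of proliferation, to which many carcinoma lines respond less.

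To show the sequence that these genes share, their promoters were searched for the letters of both elements. RefSeq promoter sequences (GRCh38.p14, 250 bases before to 50 after the annotated start) were at hand for 29 of the 35 genes, with 36 starts in all. The first 30 bases after the start were found as an unbroken run in a GENCODE transcript of the gene for 33 of the 36 starts. The exceptions were those of CDC20, KIF11 and MKI67. FOXM1, AURKA, TPX2, BIRC5, UBE2C and TTK had no entry. The letters TTTGAA or TTTAAA, as in a cell cycle homology region, stood on either strand in 26 of the 29 genes (89.7%). They stood in 52% of 100 other mitotic genes with a promoter (listed further on), in 21.5% of the 10493 tested genes with a promoter and in 27.9% of all 27305 genes of the promoter table. CCAAT stood on either strand in 25 of the 29 genes (86.2%), against 61%, 42.9% and 39.7% in the same 3 sets. Both stood together in 22 of the 29 genes (75.9%), against 30%, 8.98% and 11.2%. CCAAT occurred 2 or more times in 62.1% of the 29 genes, against 33%, 16.1% and 12.9%. In the 200 bases before the start alone, TTTGAA or TTTAAA stood in 86.2% of the 29 genes, against 28%, 15.2% and 20.4%, and both kinds stood in 75.9%, against 18%, 5.37% and 6.46%. These counts take any listed start of a gene. A match is a description of letters, and binding was not measured.

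At the first start listed for each gene, both kinds of letters lay within the last 150 bases before the start in 20 of the 29 genes. Counting any listed start, as above, they did so in 21, CDC25C being the one added. At the first start of the 20 genes the last TTTGAA or TTTAAA before the start began at a median of -29.5 bases from it. Matches after the start were left out of this median. The stretches of 7 of them, the ones that overlap no annotated exon of GENCODE 29, are shown because they span 6 roles in mitosis and hold the 2 elements at different spacings. They run 5′ to 3′ on the strand of the gene, with the searched letters in capitals, which read TTCAAA for TTTGAA and ATTGG for CCAAT where they match on the other strand. Their places on GRCh38.p14, with positions counted from the RefSeq start, were chr10:60778176-60778210 (plus strand, -155 to -121) for CDK1, chr1:214603075-214603171 (plus strand, -120 to -24) for CENPF, chr10:92593072-92593112 (plus strand, -58 to -18) for KIF11 and chr1:43358876-43358935 (plus strand, -105 to -46) for CDC20. Those of the others were chr12:53268246-53268278 (plus strand, -53 to -21) for ESPL1, chr3:172750606-172750677 (plus strand, -120 to -49) for ECT2 and chr10:128126438-128126526 (minus strand, -103 to -15) for MKI67. For CDC20, KIF11 and MKI67 the first 30 bases after this RefSeq start were not found as an unbroken run in a GENCODE transcript of the gene. CDK1 has another listed start, not shown, with TTTGAA at -69 and -13 before it and ATTGG at -78 and -46. In the MKI67 stretch the second TTTGAA overlaps the second ATTGG.
CDK1: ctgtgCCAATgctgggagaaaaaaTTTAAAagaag
CENPF: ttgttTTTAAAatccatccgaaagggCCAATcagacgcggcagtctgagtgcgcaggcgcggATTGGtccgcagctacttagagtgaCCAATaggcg
KIF11: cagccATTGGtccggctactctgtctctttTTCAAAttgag
CDC20: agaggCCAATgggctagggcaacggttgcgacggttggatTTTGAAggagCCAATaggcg
ESPL1: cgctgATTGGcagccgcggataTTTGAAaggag
ECT2: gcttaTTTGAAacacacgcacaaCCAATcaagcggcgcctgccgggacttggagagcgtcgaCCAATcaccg
MKI67: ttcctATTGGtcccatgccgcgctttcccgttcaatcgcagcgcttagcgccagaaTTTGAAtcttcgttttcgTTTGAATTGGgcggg

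**Figure D1:**
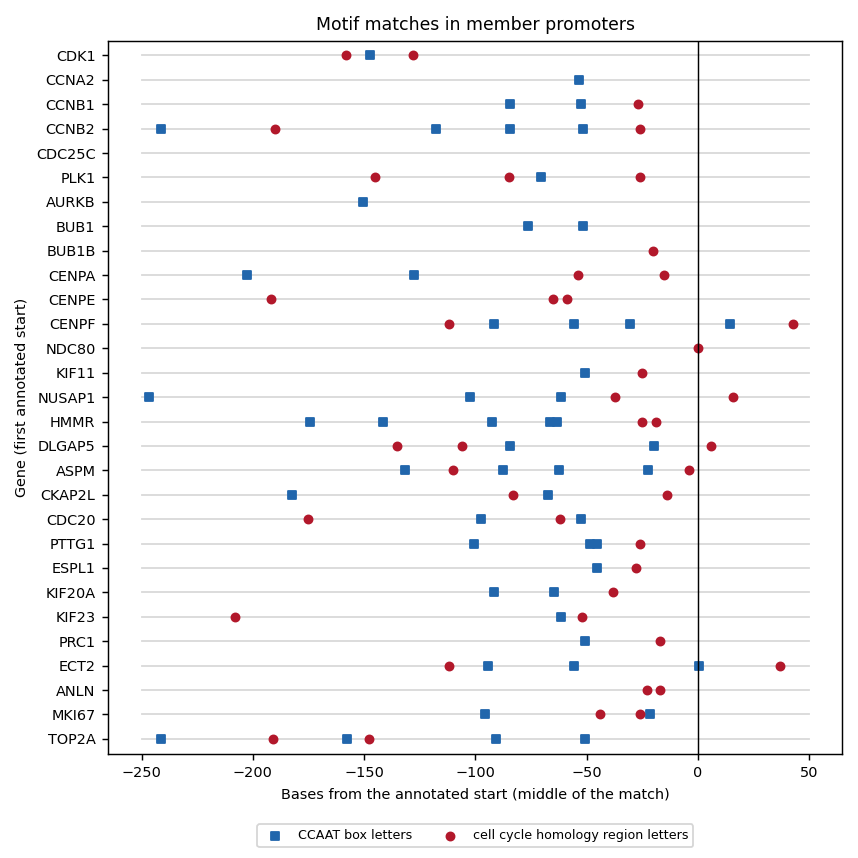
Matches to the letters TTTGAA or TTTAAA (red circles) and CCAAT (blue squares) on either strand in the promoters of 29 genes, by their distance in bases from the annotated start (black line). For genes with several starts the first in the RefSeq table is drawn, which has no match for CDC25C although another of its starts holds both; most red circles lie within the last 150 bases before the start.

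Library totals ran from 12544690 to 20438727 counts. The 72 h library of replicate 3 (passage 8) stood apart from its group, and the members are given with and without it below. MALAT1, a nuclear long non-coding RNA, took 1.539% of its counts, where replicates 1 and 2 at 72 h had 0.437% and 0.4088%, the 48 h libraries 0.4202% to 0.5071% and controls 0.2473% to 0.3513%. Ribosomal-protein genes took 1.00% of its counts, where those replicates had 1.525% and 1.762%, the 48 h libraries 1.578% to 1.991% and controls 2.372% to 2.762%. Both shares thus also differed between treated libraries and controls, with no overlap. The part of these shares in the results was not tested. All 9 squamous epithelial markers were expressed in each library, with levels given in CPM (counts scaled to a common library size). Summed levels were 26500 to 33800 CPM at 48 h and 18600 to 27400 CPM at 72 h, against 12600 to 21800 CPM in controls. Single markers did not all follow the sum. KRT14 and SFN were higher in every treated library than in any control. EPCAM was lower, at 97 to 149 CPM at 48 h and 105 to 141 CPM at 72 h, against 159 to 211 CPM in controls. KRT5 at 72 h lay below the control of its own passage in each passage. The leukocyte markers PTPRC, CD3E, CD14 and LYZ and all 5 fibroblast markers stayed under 1 CPM in every library, and of 4 endothelial markers PECAM1 alone passed 1 CPM, in 72 h replicate 3 at 1.7 CPM.

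In TGF-β1-treated cells the G2 and mitosis genes made up a smaller share of the counts than in controls at both times. Summed over the 35 genes, the level was 3724 ± 929 CPM at 48 h and 2112 ± 1237 CPM at 72 h, against 9915 ± 674.1 CPM in controls (SD, n = 3 each, on TMM-scaled library sizes). By library the sums were 2828, 3660 and 4683 CPM at 48 h and 3431, 1927 and 978.8 CPM at 72 h, against 10690, 9471 and 9583 CPM in controls. Every treated library thus held a lower sum than any control, and the 72 h libraries were spread more widely than those of the other groups. These are bulk samples, in which fewer dividing cells and less RNA per cell cannot be told apart. CPM is relative to the library, and the amount of RNA per cell was not measured.

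By the quasi-likelihood test of edgeR, with p-values adjusted by Benjamini-Hochberg over all tested genes and a threshold of 0.05, 29 of the 35 genes fell at 48 h and none rose, while over all 15440 genes 16% were called lower, 14.9% higher and 31% in either direction. At 72 h all 35 fell, while 19.4% of all genes were called lower, 20.4% higher and 39.8% in either direction. The 2 comparisons share the same control libraries. The median log2 fold change of the 35 genes was -1.50 at 48 h, with a range of -2.08 to -0.97, beside a median of -0.0019 over all genes. At 72 h it was -2.23, with a range of -2.77 to -1.56, beside 0.0326 over all genes. At an unadjusted p under 0.05 all 35 passed at both times, as did 43.3% of all genes at 48 h and 49.7% at 72 h. A difference of at least 2-fold was seen in 33 genes at 48 h and in 35 at 72 h. Over all genes the 10th percentile of the log2 fold change was -0.883 at 48 h and -0.984 at 72 h, just short of a 2-fold fall. The libraries of all 35 genes lay below those of the controls without overlap at both times, as did 28.1% of all genes at 48 h and 27.7% at 72 h. The heat map of the 35 genes over the 9 libraries shows these levels, and the plot of fold changes gives the size and error of each difference.

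The 48 h calls depended on single libraries and on the fit, while those at 72 h did so little. With the replicate number as a block, 16 of the 35 genes were called at 48 h, beside 16.5% of all genes called lower, and all 35 at 72 h. The block ended 13 of the 29 calls at 48 h, those of CDC25C, BIRC5, TTK, CENPA, CENPE, NDC80, DLGAP5, ASPM, PTTG1, ESPL1, PRC1, ANLN and MKI67. The 6 genes not called without the block were not called with it. Leaving out 48 h replicate 1, 2 or 3 left 4, 11 and 23 of the 35 genes called at 48 h, beside 8.45%, 12% and 11.3% of all genes called lower in the same fits. The 4 calls without 48 h replicate 1 are thus a share near that of all genes. Leaving out control replicate 1, 2 or 3 left 10, 10 and 14 calls, beside 9.18%, 8.46% and 9.66% of all genes. Since all groups share 1 estimate of the spread, leaving out 72 h replicate 1, 2 or 3 gave 35, 20 and 35 calls at 48 h, beside 16%, 14.6% and 20.1%. At 72 h, 34 or 35 genes were called without any 1 library, beside 13% to 18.9% of all genes called lower. With no filter on low counts, 36944 genes were tested and 6.15% of them were called lower at 48 h, and 11 of the 35 genes kept their 48 h call: FOXM1, CCNB1, CCNB2, CDC25C, AURKA, BUB1B, TTK, CENPF, KIF11, KIF23 and ECT2. The other 18 calls were lost (adjusted p from 0.0761 to 0.232), among them those of CCNA2 (0.0971), PLK1 (0.0807) and TPX2 (0.0761). At 72 h that fit called 30 of the 35 genes, beside 7.5% of all genes called lower. DESeq2 called all 35 genes lower at both times, beside 16.8% of all genes at 48 h and 20.2% at 72 h. Scaling by DESeq2's size factors or by upper quartiles in edgeR ended the 48 h calls of CENPE (adjusted p = 0.0525 in both) and PTTG1 (adjusted p = 0.0525 and 0.0512). The median at 72 h was -1.87 without 72 h replicate 3 and -2.79 without 72 h replicate 1. The 4 genes called at 48 h under each of the 16 alternatives of the fit were CCNB1, AURKA, KIF11 and ECT2.

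**Figure D2:**
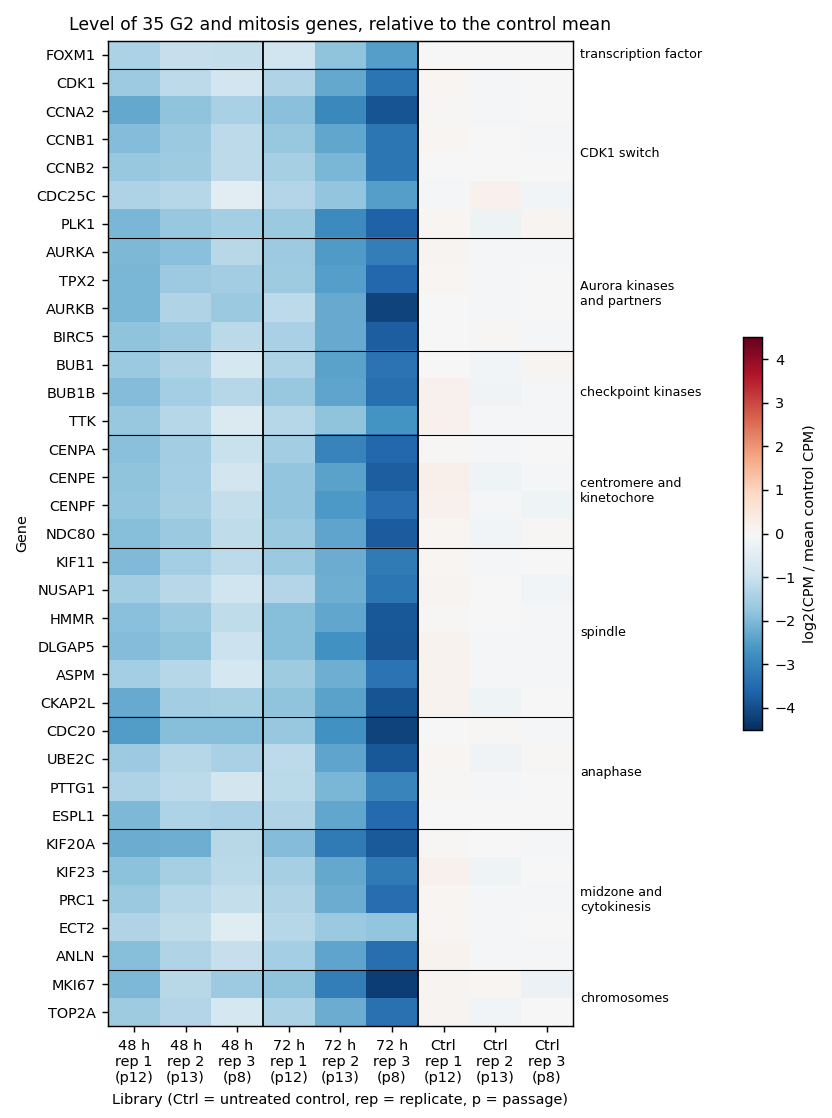
Level of each of the 35 genes (rows, by role) in each of the 9 libraries (columns), as log2 of CPM over the mean CPM of the 3 controls. All 48 h and 72 h libraries lie below the controls, and 72 h replicate 3 is the darkest column, at a median of 9.37% of the control mean.

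**Figure D3:**
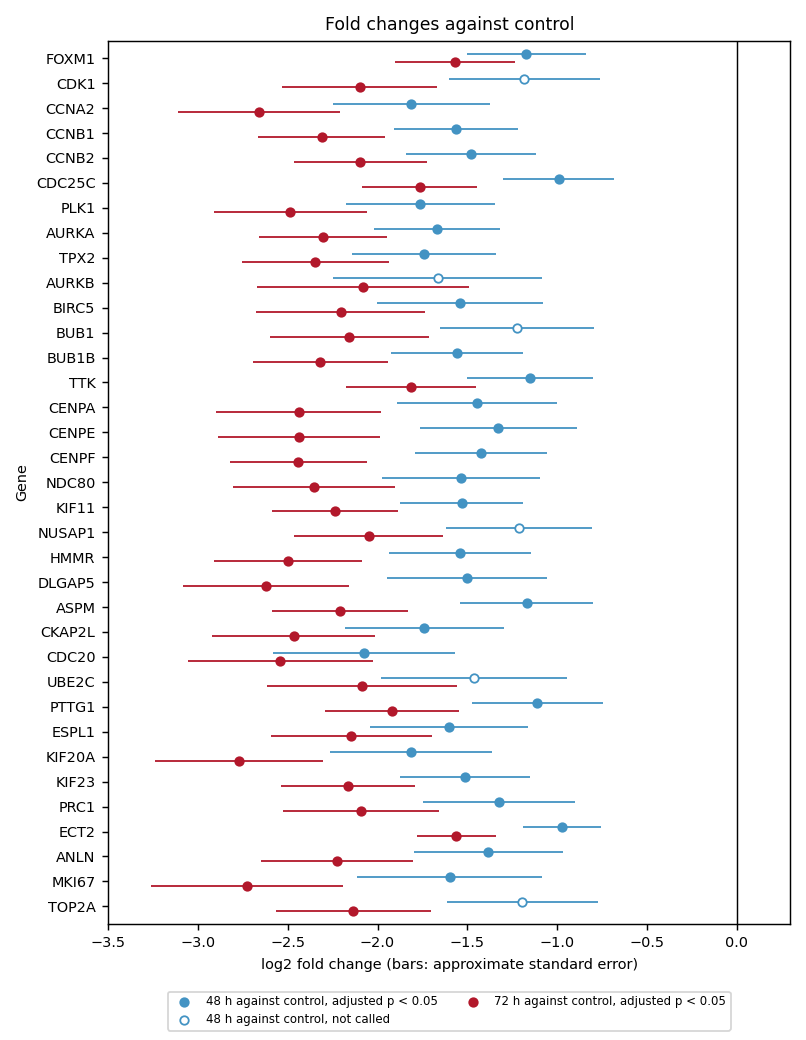
The log2 fold change of each of the 35 genes against control at 48 h (blue) and 72 h (red), with bars of 1 approximate standard error and open circles for an adjusted p of 0.05 or more. All values lie below 0, and the 6 open circles all belong to 48 h.

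FOXM1 (ENSG00000111206, chr12:2857681-2877155, minus strand, GRCh38 coordinates of GENCODE 29 here and for each gene that follows) is a transcription factor that activates many of the other genes. FOXM1 had 43.9, 57.5 and 55.3 CPM in the 48 h libraries and 63.9, 33.9 and 21 CPM in the 72 h libraries, against 120.1, 115 and 118 CPM in the controls. All treated libraries lay below the controls, and 72 h replicate 1 lay above the 48 h libraries. FOXM1 fell 2.25-fold at 48 h (log2 fold change -1.17, SE 0.33, adjusted p = 0.027) and 2.97-fold at 72 h (log2 fold change -1.57, SE 0.34, adjusted p = 0.00667). Without 48 h replicate 1, 2 or 3 or control replicate 1, 2 or 3, FOXM1 was no longer called at 48 h (adjusted p from 0.0575 to 0.0951).

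The 6 genes of the CDK1 switch set off mitosis: 5 fell at 48 h and all 6 at 72 h, with median log2 fold changes of -1.52 and -2.21. CDK1 itself (ENSG00000170312, chr10:60778331-60794852, plus strand) is the kinase of mitotic entry, and CCNA2 (ENSG00000145386, chr4:121816444-121823933, minus strand) and CCNB1 (ENSG00000134057, chr5:69167010-69178245, plus strand) encode its partners cyclin A2 and cyclin B1. CDK1 had 230.3, 319.5 and 399 CPM in the 48 h libraries and 283, 146 and 73 CPM in the 72 h libraries, against 770.5, 670.0 and 712 CPM in the controls. For CCNA2, the 48 h libraries held 51.7, 72.2 and 92.3 CPM and the 72 h libraries 68.8, 33.7 and 17.3 CPM, against 264, 241 and 254 CPM in the controls. CCNB1 stood at 100.3, 123 and 171 CPM at 48 h and at 118, 76.6 and 40.4 CPM at 72 h, against 412, 384 and 368 CPM in controls. In all 3 genes the 48 h libraries had replicate 3 highest and replicate 1 lowest, the 72 h libraries had replicate 1 highest and replicate 3 lowest, and none of them reached the controls. CDK1 missed the threshold at 48 h (log2 fold change -1.18, SE 0.42, adjusted p = 0.0598) and fell 4.29-fold at 72 h (log2 fold change -2.10, SE 0.43, adjusted p = 0.00562). CCNA2 fell 3.51-fold at 48 h (log2 fold change -1.81, SE 0.44, adjusted p = 0.0157) and 6.33-fold at 72 h (log2 fold change -2.66, SE 0.45, adjusted p = 0.00281). The fall of CCNB1 was 2.96-fold at 48 h (log2 fold change -1.56, SE 0.34, adjusted p = 0.0101) and 4.96-fold at 72 h (log2 fold change -2.31, SE 0.35, adjusted p = 0.00157). CCNA2 stood lowest of the 6 by its mean of both fold changes. The 48 h call of CCNA2 was lost without 48 h replicate 1 (adjusted p = 0.0607).

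PLK1 (ENSG00000166851, chr16:23677656-23690367, plus strand) is a kinase of centrosomes and kinetochores that also helps to switch on CDK1. PLK1 stood at 16.8, 21.4 and 24.2 CPM at 48 h and at 22.3, 9.74 and 5.68 CPM at 72 h, against 74.9, 60.3 and 76.4 CPM in controls. Replicate 1 at 72 h lay between 48 h replicates 2 and 3, and every treated library lay below the controls. PLK1 fell 3.39-fold at 48 h (log2 fold change -1.76, SE 0.42, adjusted p = 0.0142) and 5.6-fold at 72 h (log2 fold change -2.48, SE 0.43, adjusted p = 0.00289). Leaving out 48 h replicate 1 ended the 48 h call of PLK1 (adjusted p = 0.0594). CCNB2, which encodes cyclin B2, averaged 44 ± 8.39 CPM at 48 h and 28.6 ± 15.6 CPM at 72 h, against 122 ± 2.31 CPM in controls (SD, n = 3 each). The fall of CCNB2 was 2.79-fold at 48 h (log2 fold change -1.48, SE 0.36, adjusted p = 0.0163) and 4.28-fold at 72 h (log2 fold change -2.10, SE 0.37, adjusted p = 0.00315). CCNB2 lost its 48 h call without 48 h replicate 1 or 2 or control replicate 2 (adjusted p from 0.0506 to 0.064). CDC25C, a phosphatase that removes the inhibitory phosphates of CDK1, averaged 14.9 ± 5.59 CPM at 48 h and 8.66 ± 3.32 CPM at 72 h, against 29.5 ± 3.4 CPM in controls. CDC25C fell 1.99-fold at 48 h (log2 fold change -0.99, SE 0.31, adjusted p = 0.0371) and 3.4-fold at 72 h (log2 fold change -1.77, SE 0.32, adjusted p = 0.00289). Without 48 h replicate 1 or 2, 72 h replicate 2 or control replicate 1, 2 or 3, CDC25C was no longer called at 48 h (adjusted p from 0.0578 to 0.129). With the replicate block its 48 h adjusted p was 0.0638.

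The Aurora kinases and their partners fell in 3 of 4 cases at 48 h and in 4 of 4 at 72 h, with medians of -1.67 and -2.26. Aurora A (AURKA, ENSG00000087586, chr20:56369389-56392337, minus strand) acts at spindle poles, where TPX2 (ENSG00000088325, chr20:31739271-31801805, plus strand) binds and activates it. Aurora B (AURKB, ENSG00000178999, chr17:8204733-8210600, minus strand) acts at centromeres with survivin, the product of BIRC5. AURKA had 59.9, 65.6 and 103 CPM in the 48 h libraries and 77.2, 41.6 and 28.1 CPM in the 72 h libraries, against 263, 234 and 229 CPM in the controls. For TPX2, the 48 h libraries held 137, 185 and 194 CPM and the 72 h libraries 187, 102 and 49.2 CPM, against 616, 541 and 567 CPM in the controls. AURKB stood at 32.4, 52.6 and 42.1 CPM at 48 h and at 59.5, 28.1 and 7.41 CPM at 72 h, against 138, 129 and 136 CPM in controls. The treated libraries of all 3 genes stayed below the controls, and AURKB had the widest spread at 72 h of the 35 genes, with its highest library 8.02 times its lowest. AURKA fell 3.18-fold at 48 h (log2 fold change -1.67, SE 0.35, adjusted p = 0.00838) and 4.94-fold at 72 h (log2 fold change -2.31, SE 0.36, adjusted p = 0.00173). The fall of TPX2 was 3.34-fold at 48 h (log2 fold change -1.74, SE 0.40, adjusted p = 0.0124) and 5.08-fold at 72 h (log2 fold change -2.35, SE 0.41, adjusted p = 0.00288). AURKB missed the threshold at 48 h (log2 fold change -1.66, SE 0.58, adjusted p = 0.0602) and fell 4.23-fold at 72 h (log2 fold change -2.08, SE 0.59, adjusted p = 0.0234). Without 48 h replicate 1, TPX2 was no longer called at 48 h (adjusted p = 0.0523). The 72 h call of AURKB was lost without 72 h replicate 2 or control replicate 1, 2 or 3 (adjusted p from 0.0556 to 0.064). BIRC5 averaged 103 ± 23.4 CPM at 48 h and 65 ± 43.8 CPM at 72 h, against 299.9 ± 12.2 CPM in controls, and fell 2.91-fold at 48 h (log2 fold change -1.54, SE 0.46, adjusted p = 0.0349) and 4.61-fold at 72 h (log2 fold change -2.21, SE 0.47, adjusted p = 0.00726). Leaving out 48 h replicate 1, 2 or 3, 72 h replicate 2 or control replicate 1, 2 or 3 ended the 48 h call of BIRC5 (adjusted p from 0.0519 to 0.111). With the replicate block its 48 h adjusted p was 0.0722.

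Among the checkpoint kinases and their relatives, 2 of 3 genes fell at 48 h and all 3 at 72 h, with medians of -1.22 and -2.16. BUB1 (ENSG00000169679, chr2:110637698-110678114, minus strand) and BUB1B (ENSG00000156970, chr15:40161023-40221136, plus strand, encoding BUBR1) act at kinetochores that lack microtubules, and BUBR1 is part of the complex that holds back CDC20. BUB1 had 45.9, 57.5 and 83.7 CPM in the 48 h libraries and 56, 27.1 and 14.5 CPM in the 72 h libraries, against 144, 134 and 158 CPM in the controls. For BUB1B, the 48 h libraries held 31.5, 41.8 and 49.7 CPM and the 72 h libraries 37.4, 23.5 and 11.4 CPM, against 139, 108 and 115 CPM in the controls. Replicate 3 was the highest library at 48 h and the lowest at 72 h for both genes, and neither overlapped the controls. The 48 h difference of BUB1 missed the threshold (log2 fold change -1.22, SE 0.43, adjusted p = 0.0597), and at 72 h BUB1 fell 4.46-fold (log2 fold change -2.16, SE 0.44, adjusted p = 0.00605). BUB1B fell 2.94-fold at 48 h (log2 fold change -1.56, SE 0.37, adjusted p = 0.0138) and 4.99-fold at 72 h (log2 fold change -2.32, SE 0.38, adjusted p = 0.00223). BUB1B lost its 48 h call without 48 h replicate 1 (adjusted p = 0.0562). TTK, the checkpoint kinase MPS1, averaged 48.4 ± 17.5 CPM at 48 h and 30.5 ± 13.9 CPM at 72 h, against 107 ± 12.5 CPM in controls. TTK fell 2.22-fold at 48 h (log2 fold change -1.15, SE 0.35, adjusted p = 0.0364) and 3.51-fold at 72 h (log2 fold change -1.81, SE 0.36, adjusted p = 0.00501). The 48 h call of TTK was lost without 48 h replicate 1 or 2, 72 h replicate 2 or control replicate 1, 2 or 3 (adjusted p from 0.0584 to 0.116). The replicate block gave TTK an adjusted p of 0.0825 at 48 h.

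All 4 genes of the centromere and kinetochore fell at both times, with medians of -1.43 at 48 h and -2.44 at 72 h. CENPF (ENSG00000117724, chr1:214603195-214664588, plus strand) is a large protein of the outer kinetochore in G2 and mitosis, and NDC80 (ENSG00000080986, chr18:2571511-2616635, plus strand) is part of the complex that binds microtubule ends. For CENPF, the 48 h libraries held 169, 202 and 271 CPM and the 72 h libraries 168, 96.6 and 53 CPM, against 663.9, 554 and 507 CPM in the controls. NDC80 stood at 42, 50 and 72.5 CPM at 48 h and at 50.4, 31 and 11.7 CPM at 72 h, against 167, 144 and 165 CPM in controls. No 72 h library of CENPF reached its lowest 48 h library, while for NDC80 the 72 h and 48 h libraries overlapped. CENPF fell 2.69-fold at 48 h (log2 fold change -1.43, SE 0.37, adjusted p = 0.0186) and 5.43-fold at 72 h (log2 fold change -2.44, SE 0.38, adjusted p = 0.00167). The fall of NDC80 was 2.9-fold at 48 h (log2 fold change -1.54, SE 0.44, adjusted p = 0.0296) and 5.11-fold at 72 h (log2 fold change -2.35, SE 0.45, adjusted p = 0.00477). Without 48 h replicate 1 or 2 or control replicate 1 or 2, CENPF was no longer called at 48 h (adjusted p from 0.0516 to 0.0738). Leaving out 48 h replicate 1 or 2 or control replicate 1, 2 or 3 ended the 48 h call of NDC80 (adjusted p from 0.0678 to 0.102). With the block the 48 h adjusted p of NDC80 was 0.0673. CENPA, the histone H3 variant that marks centromeres, and CENPE, a kinesin of the kinetochore, averaged 20.9 ± 6.53 CPM and 73.6 ± 27.2 CPM at 48 h and 10.4 ± 7.72 CPM and 34.1 ± 19.7 CPM at 72 h, against 56.8 ± 2.46 CPM and 184 ± 27.2 CPM in controls. CENPA fell 2.72-fold at 48 h (log2 fold change -1.44, SE 0.45, adjusted p = 0.0379) and 5.43-fold at 72 h (log2 fold change -2.44, SE 0.46, adjusted p = 0.00437). The fall of CENPE was 2.51-fold at 48 h (log2 fold change -1.33, SE 0.44, adjusted p = 0.048) and 5.41-fold at 72 h (log2 fold change -2.44, SE 0.45, adjusted p = 0.00413). CENPA lost its 48 h call without 48 h replicate 1 or 2 or control replicate 1, 2 or 3 (adjusted p from 0.0876 to 0.125). CENPE lost its 48 h call without 48 h replicate 1 or 2, 72 h replicate 2 or control replicate 1, 2 or 3 (adjusted p from 0.0689 to 0.145). Their block values at 48 h were adjusted p = 0.0708 for CENPA and 0.101 for CENPE.

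Of the 6 spindle genes, 5 fell at 48 h and 6 at 72 h, with medians of -1.52 and -2.35. CKAP2L (ENSG00000169607, chr2:112736607-112764677, minus strand) encodes a spindle protein needed for orderly division, and NUSAP1 (ENSG00000137804, chr15:41332694-41381050, plus strand) a protein that binds and bundles spindle microtubules. CKAP2L had 26.1, 41.6 and 44.2 CPM in the 48 h libraries and 35.8, 23.3 and 8.34 CPM in the 72 h libraries, against 138, 109.6 and 125 CPM in the controls. For NUSAP1, the 48 h libraries held 85.9, 108 and 138 CPM and the 72 h libraries 103, 55 and 27.1 CPM, against 279, 250.1 and 237 CPM in the controls. For both genes the highest 72 h library, replicate 1, lay between the 48 h libraries, and the controls lay above all of these. CKAP2L fell 3.34-fold at 48 h (log2 fold change -1.74, SE 0.44, adjusted p = 0.0192) and 5.53-fold at 72 h (log2 fold change -2.47, SE 0.45, adjusted p = 0.004). The 48 h difference of NUSAP1 missed the threshold (log2 fold change -1.21, SE 0.41, adjusted p = 0.0506), and at 72 h NUSAP1 fell 4.14-fold (log2 fold change -2.05, SE 0.41, adjusted p = 0.00562). The 48 h call of CKAP2L was lost without 48 h replicate 1 or control replicate 1 or 3 (adjusted p from 0.0522 to 0.071). KIF11, the motor that pushes spindle poles apart, averaged 101 ± 27.9 CPM at 48 h and 61.9 ± 29.9 CPM at 72 h, against 292 ± 20.6 CPM in controls. KIF11 fell 2.89-fold at 48 h (log2 fold change -1.53, SE 0.34, adjusted p = 0.0109) and 4.71-fold at 72 h (log2 fold change -2.24, SE 0.35, adjusted p = 0.0018).

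HMMR, DLGAP5 and ASPM, whose products act on spindle microtubules and poles, completed the spindle genes. HMMR averaged 37 ± 9.93 CPM at 48 h and 19 ± 10.5 CPM at 72 h, against 108 ± 5.95 CPM in controls. DLGAP5 averaged 85.6 ± 34.7 CPM at 48 h and 39.4 ± 23.9 CPM at 72 h, against 242 ± 22.2 CPM in controls. For ASPM the means were 145 ± 38.2 CPM at 48 h and 70.4 ± 37 CPM at 72 h, against 326 ± 30.4 CPM in controls. All 3 had lower means at 72 h than at 48 h. HMMR fell 2.91-fold at 48 h (log2 fold change -1.54, SE 0.40, adjusted p = 0.0198) and 5.66-fold at 72 h (log2 fold change -2.50, SE 0.41, adjusted p = 0.00245). DLGAP5 fell 2.83-fold at 48 h (log2 fold change -1.50, SE 0.45, adjusted p = 0.0334) and 6.15-fold at 72 h (log2 fold change -2.62, SE 0.46, adjusted p = 0.00336). ASPM fell 2.25-fold at 48 h (log2 fold change -1.17, SE 0.37, adjusted p = 0.0395) and 4.63-fold at 72 h (log2 fold change -2.21, SE 0.38, adjusted p = 0.00268). Their 48 h calls were lost without 48 h replicate 1 or 2 or control replicate 1 or 2 for HMMR (adjusted p from 0.0582 to 0.0766), without 48 h replicate 1 or 2 or control replicate 1, 2 or 3 for DLGAP5 (adjusted p from 0.0721 to 0.11) and without 48 h replicate 1 or 2, 72 h replicate 2 or control replicate 1, 2 or 3 for ASPM (adjusted p from 0.0617 to 0.127). The block left DLGAP5 (adjusted p = 0.0742) and ASPM (0.0767) above the threshold at 48 h.

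The 4 genes of anaphase control fell in 3 cases at 48 h and in 4 at 72 h, with medians of -1.53 and -2.12. CDC20 (ENSG00000117399, chr1:43358955-43363203, plus strand) activates the anaphase-promoting complex, and UBE2C (ENSG00000175063, chr20:45812576-45816957, plus strand) is a ubiquitin-conjugating enzyme that works with it. CDC20 had 67.2, 102 and 102 CPM in the 48 h libraries and 118, 56.9 and 21.4 CPM in the 72 h libraries, against 383, 392 and 366 CPM in the controls. UBE2C stood at 45.4, 58.1 and 51.4 CPM at 48 h and at 63.1, 27.4 and 10.1 CPM at 72 h, against 152, 128 and 148 CPM in controls. In both genes 72 h replicate 1 was the highest treated library and 72 h replicate 3 the lowest, and the controls stood above both. CDC20 fell 4.21-fold at 48 h (log2 fold change -2.08, SE 0.51, adjusted p = 0.0167) and 5.82-fold at 72 h (log2 fold change -2.54, SE 0.52, adjusted p = 0.00591). CDC20 had the lowest 48 h value of the 35 genes. UBE2C missed the threshold at 48 h (log2 fold change -1.46, SE 0.52, adjusted p = 0.0627) and fell 4.25-fold at 72 h (log2 fold change -2.09, SE 0.53, adjusted p = 0.015). Leaving out 48 h replicate 1 or control replicate 2 ended the 48 h call of CDC20 (adjusted p from 0.0507 to 0.0651). PTTG1 encodes securin, the inhibitor of separase, and ESPL1 encodes separase, which cuts cohesin. PTTG1 averaged 74.4 ± 15.2 CPM at 48 h and 42.4 ± 24.3 CPM at 72 h, against 160.3 ± 6.15 CPM in controls, and ESPL1 37.2 ± 8.38 CPM and 25.4 ± 17.2 CPM against 113 ± 1.85 CPM. PTTG1 fell 2.16-fold at 48 h (log2 fold change -1.11, SE 0.36, adjusted p = 0.0464) and 3.78-fold at 72 h (log2 fold change -1.92, SE 0.37, adjusted p = 0.00461). ESPL1 fell 3.03-fold at 48 h (log2 fold change -1.60, SE 0.44, adjusted p = 0.0257) and 4.42-fold at 72 h (log2 fold change -2.15, SE 0.45, adjusted p = 0.00666). The 48 h calls of both were lost without 48 h replicate 1, 2 or 3, 72 h replicate 2 or control replicate 1, 2 or 3 for PTTG1 (adjusted p from 0.0656 to 0.141) and without 48 h replicate 1, 2 or 3 or control replicate 1, 2 or 3 for ESPL1 (adjusted p from 0.0574 to 0.0915). With the block the 48 h adjusted p was 0.0794 for PTTG1 and 0.0544 for ESPL1.

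All 5 genes of the spindle midzone and of cytokinesis fell at both times, with medians of -1.38 at 48 h and -2.17 at 72 h. KIF20A (ENSG00000112984, chr5:138178719-138187715, plus strand) is a kinesin of the midzone, and ECT2 (ENSG00000114346, chr3:172750682-172821474, plus strand) is the exchange factor that activates RhoA at the cleavage furrow. For KIF20A, the 48 h libraries held 37.1, 37.3 and 73.2 CPM and the 72 h libraries 44.4, 18.9 and 12.7 CPM, against 181, 174 and 163 CPM in the controls. ECT2 stood at 139, 161 and 245 CPM at 48 h and at 146, 111 and 105 CPM at 72 h, against 381, 333 and 354 CPM in controls. KIF20A had the lowest 72 h fold change of the 35 genes, and ECT2, singled out after its values were seen, the narrowest 72 h spread, with a highest library 1.40 times its lowest. KIF20A fell 3.52-fold at 48 h (log2 fold change -1.81, SE 0.45, adjusted p = 0.0175) and 6.83-fold at 72 h (log2 fold change -2.77, SE 0.47, adjusted p = 0.00277). The fall of ECT2 was 1.96-fold at 48 h (log2 fold change -0.97, SE 0.22, adjusted p = 0.00923) and 2.95-fold at 72 h (log2 fold change -1.56, SE 0.22, adjusted p = 0.000947). The 48 h call of KIF20A was lost without 48 h replicate 1 or 2 or control replicate 1 or 2 (adjusted p from 0.0517 to 0.0674). KIF23 and PRC1, which build the central spindle, averaged 95.1 ± 20.5 CPM and 114 ± 22.7 CPM at 48 h and 60.4 ± 33.3 CPM and 66.9 ± 43.2 CPM at 72 h, against 271 ± 34.1 CPM and 285 ± 15.9 CPM in controls. ANLN, the actin-binding scaffold of the contractile ring, averaged 264 ± 78.1 CPM at 48 h and 147 ± 88.5 CPM at 72 h, against 689 ± 63 CPM in controls. KIF23 fell 2.85-fold at 48 h (log2 fold change -1.51, SE 0.36, adjusted p = 0.0148) and 4.49-fold at 72 h (log2 fold change -2.17, SE 0.37, adjusted p = 0.00271). PRC1 fell 2.5-fold at 48 h (log2 fold change -1.32, SE 0.42, adjusted p = 0.0438) and 4.26-fold at 72 h (log2 fold change -2.09, SE 0.43, adjusted p = 0.00628). ANLN fell 2.61-fold at 48 h (log2 fold change -1.38, SE 0.41, adjusted p = 0.0329) and 4.68-fold at 72 h (log2 fold change -2.23, SE 0.42, adjusted p = 0.00422). The 48 h calls were lost without 48 h replicate 1 or control replicate 1 for KIF23 (adjusted p from 0.0501 to 0.0594), 48 h replicate 1, 2 or 3, 72 h replicate 2 or control replicate 1, 2 or 3 for PRC1 (adjusted p from 0.0649 to 0.136) and 48 h replicate 1 or 2, 72 h replicate 2 or control replicate 1, 2 or 3 for ANLN (adjusted p from 0.0509 to 0.109). The block gave PRC1 an adjusted p of 0.0809 and ANLN one of 0.0698 at 48 h.

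The 2 chromosome proteins are widely used as proliferation markers. MKI67 (ENSG00000148773, chr10:128096659-128126385, minus strand) encodes Ki-67, which coats mitotic chromosomes, and TOP2A (ENSG00000131747, chr17:40388516-40417950, minus strand) encodes the topoisomerase that untangles sister DNA. MKI67 had 126, 214 and 164 CPM in the 48 h libraries and 144, 59.3 and 27.1 CPM in the 72 h libraries, against 557, 539.9 and 428 CPM in the controls. For TOP2A, the 48 h libraries held 391, 479 and 693 CPM and the 72 h libraries 449, 251 and 115 CPM, against 1302, 1099 and 1174 CPM in the controls. No treated library of either gene reached the controls, and the 72 h libraries overlapped those of 48 h. MKI67 fell 3.03-fold at 48 h (log2 fold change -1.60, SE 0.52, adjusted p = 0.0448) and 6.62-fold at 72 h (log2 fold change -2.73, SE 0.54, adjusted p = 0.00517). TOP2A missed the threshold at 48 h (log2 fold change -1.19, SE 0.42, adjusted p = 0.0587) and fell 4.39-fold at 72 h (log2 fold change -2.13, SE 0.43, adjusted p = 0.00529). Without 48 h replicate 1, 2 or 3, 72 h replicate 2 or control replicate 1, 2 or 3, MKI67 was no longer called at 48 h (adjusted p from 0.0591 to 0.137). With the replicate block MKI67 also missed the threshold at 48 h (adjusted p = 0.0642).

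Between 72 h and 48 h, none of the 35 genes passed edgeR's adjusted threshold, nor did any of the 15440 genes (0%). At an unadjusted p under 0.05 there were 7 of the 35 genes (CDC25C, CENPE, CENPF, HMMR, DLGAP5, ASPM and ECT2) and 8.95% of all genes, and DESeq2 called none of the 35 and 50 of all genes. The log2 difference of 72 h minus 48 h was below 0 in all 35, with a median of -0.77 beside 0.0231 over all genes. For CENPF it was -1.02 (SE 0.36, adjusted p = 0.528). The 72 h libraries lay below all 48 h libraries for 3 of the 35 genes, which were CENPF, HMMR and ASPM, as they did for 5.17% of all genes. HMMR had 28.2, 21.1 and 7.6 CPM at 72 h, against 29.1, 33.8 and 48.2 CPM at 48 h. ASPM had 107, 71.4 and 32.9 CPM at 72 h, against 113, 134 and 187 CPM at 48 h. In both genes the nearest pair of libraries was replicate 1 of each time. Without 72 h replicate 3 the median difference was -0.43 and the sign of AURKB turned, to 0.05.

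The passages differed in the course from 48 h to 72 h. At 48 h minus control, all 35 genes were below 0 in each passage, with median log2 differences of -1.99 in passage 12, -1.37 in passage 13 and -1.11 in passage 8. Of all tested genes, 50.7%, 50.7% and 51.9% were below 0 in the same order. For 72 h minus control the 35 genes were again all below 0, with medians of -1.67, -2.23 and -3.36 in the same order of passages. Here 51.3%, 50.3% and 47.8% of all tested genes were below 0. For 72 h minus 48 h, 32 of the 35 genes were above 0 in passage 12, with a median of 0.30 and a range from -0.09 (ASPM) to 0.88 (AURKB). In passage 13 all 35 were below 0, with a median of -0.88, and in passage 8 all 35 were below 0, with a median of -2.34. Over all tested genes the medians of this difference were 0.0121, -0.0037 and 0.0568, and 48.7%, 50.4% and 45.8% were below 0. Each of these values rests on 1 library per group and passage, so no test within a passage was possible, and a passage cannot be told apart from its single library.

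**Figure D4:**
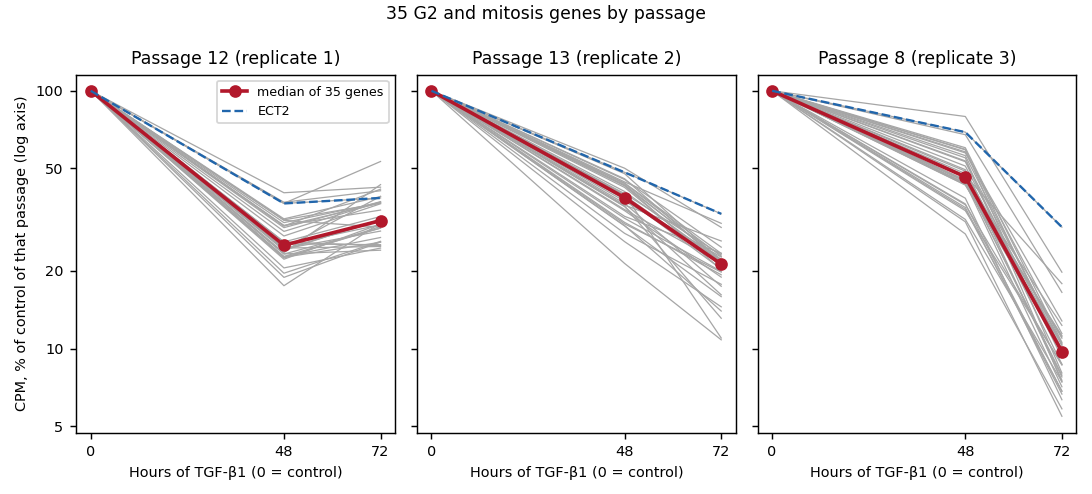
Level of each of the 35 genes (grey lines) at 0, 48 and 72 h in each passage, as a percentage of the control of that passage on a log axis, with the median in red and ECT2 in blue. The median goes up between 48 and 72 h in passage 12 and down in passages 13 and 8.

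The order of libraries was shared over the 35 genes. At 72 h replicate 1 was above replicate 2 and replicate 2 above replicate 3 in 35 of 35 genes, an order found in 18.6% of all tested genes. At 48 h replicate 3 was above 2 and 2 above 1 in 30 of 35, an order found in 15.9% of all genes. Both orders held in 30 of the 35 genes and in 2.82% of all genes. The highest library was a median of 1.69 times the lowest at 48 h and 3.79 times at 72 h, against 1.15 times in controls, while over all genes these medians were 1.37, 1.49 and 1.22. The 72 h level in replicate 3, over the mean of replicates 1 and 2, ran from 0.169 for AURKB and 0.224 for UBE2C to 0.514 for CDC25C and 0.814 for ECT2. With passages 12 and 13 alone, a setting chosen after seeing the data, all 35 genes were called lower at both times, beside 15.1% of all genes at 48 h and 16% at 72 h, with medians of -1.69 at 48 h and -1.90 at 72 h.

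Levels per exon length were compared as TPM, a length-scaled level computed from the counts and GENCODE exon lengths. The 3 highest genes averaged 117 ± 78.8 TPM (CDC20), 155 ± 84.4 TPM (TOP2A) and 156 ± 87.3 TPM (CDK1) at 72 h, against 667 ± 19.2, 661 ± 64.7 and 652 ± 53.8 TPM in controls (SD, n = 3 each). These 3 levels did not differ beyond their spread within either group. TPX2 and CCNB1 came next in controls at 569 ± 44.7 and 542 ± 34.4 TPM, also within 1 SD of each other. PLK1, ESPL1 and CDC25C were the lowest in controls, at 53, 45.3 and 31.5 TPM. Across the 35 genes, which share their libraries, the log2 fold change had a Pearson r of 0.2 with log2 exon length at 48 h and -0.086 at 72 h against control, and of -0.4 for 72 h against 48 h (Spearman rho 0.2, -0.073 and -0.3).

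The wider mitotic machinery was followed in 113 further genes of 10 lists, all tested, and chosen like the members with earlier results known. Of these, 73 fell and 1 rose at 48 h, and 84 fell and none rose at 72 h. Over all 15440 genes, 16% were called lower and 14.9% higher at 48 h, and 19.4% and 20.4% at 72 h. The counts of each list below stand beside the same shares. With libraries left out one at a time, the 48 h calls numbered 22 without 48 h replicate 1, 42 without 48 h replicate 2, and 34, 33 and 34 without control replicates 1, 2 and 3. In the same fits and order, 8.45%, 12%, 9.18%, 8.46% and 9.66% of all genes were called lower. The 72 h calls ran from 78 to 85 over the 9 omissions, beside 13% to 18.9% of all genes called lower. The condensins, which compact chromosomes, fell in 8 of 8 genes at both times, with medians of -1.25 at 48 h and -1.83 at 72 h. Other mitotic kinesins fell in 7 of 9 genes at 48 h and in 9 of 9 at 72 h, with medians of -1.45 and -2.09. Other kinetochore and centromere genes fell in 21 of 28 at 48 h and in 26 of 28 at 72 h, with medians of -1.24 and -1.67. NCAPG, a condensin subunit, averaged 82.3 ± 19.8 CPM at 48 h and 49.3 ± 35.4 CPM at 72 h, against 243 ± 27.1 CPM in controls. KIF18B, a kinesin that shortens microtubules, averaged 26.1 ± 3.61 CPM at 48 h and 20 ± 16.5 CPM at 72 h, against 102 ± 8.5 CPM in controls. SPC24, a partner of NDC80, averaged 26.7 ± 7.67 CPM at 48 h and 14 ± 8.9 CPM at 72 h, against 79.2 ± 4.62 CPM in controls. All 3 fell at both times, with adjusted p of 0.0357, 0.0217 and 0.0223 at 48 h and 0.00677, 0.00867 and 0.00305 at 72 h. Among the kinetochore genes CENPT, a scaffold of the inner kinetochore, was not called (log2 fold change 0.19, SE 0.14, adjusted p = 0.325 at 48 h).

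Other control genes of CDK1 fell in 11 of 15 at 48 h and in 12 of 15 at 72 h, with medians of -1.22 and -1.54. PKMYT1, a kinase that inhibits CDK1, fell at both times (log2 fold change -2.08, SE 0.53, adjusted p = 0.0202 at 48 h and log2 fold change -2.41, SE 0.54, adjusted p = 0.00896 at 72 h), as did the phosphatase gene CDC25A (log2 fold change -1.74, SE 0.40, adjusted p = 0.0134 at 48 h and log2 fold change -2.05, SE 0.41, adjusted p = 0.00521 at 72 h). Inhibitor and activator thus both fell. ARPP19, a phosphatase inhibitor of mitosis, was not called and had log2 fold changes of 0.11 at 48 h and -0.02 at 72 h. Other cytokinesis genes fell in 5 of 7 at both times, with medians of -1.38 and -1.75. CEP55 and CDCA8, which act in abscission and with Aurora B, had log2 fold changes of -1.59 (adjusted p = 0.0214) and -1.84 (adjusted p = 0.0154) at 48 h. The non-muscle myosin gene MYH9 was not called at either time.

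The other 5 lists had medians nearer 0. Their counts again stand beside 16% of all genes called lower at 48 h and 19.4% at 72 h. Core subunits of the anaphase-promoting complex fell in 6 of 14 at both times, with medians of -0.27 and -0.29, and ANAPC16 had a log2 fold change of 0.46 at 48 h that was not called (adjusted p = 0.0957). Cohesin with its loaders and releasers fell in 6 of 13 at 48 h and in 7 of 13 at 72 h, with medians of -0.47 and -0.68. Within that list CDCA5 (sororin) and SGO2 (shugoshin 2), protectors of cohesin in dividing cells, had log2 fold changes of -1.84 and -1.30 at 48 h and -2.07 and -2.08 at 72 h, whereas PDS5A was at 0.09 and -0.06. Other checkpoint genes fell in 3 of 5 at both times, among them MAD2L1 (log2 fold change -1.68, SE 0.46, adjusted p = 0.0257 at 48 h) and TRIP13 (log2 fold change -1.86, SE 0.49, adjusted p = 0.0219 at 48 h). MuvB, B-MYB and pocket proteins held 4 genes that fell and 1 that rose at 48 h, and 6 that fell at 72 h, with medians of -0.44 and -0.52. MYBL2, which encodes B-MYB, averaged 47 ± 12.9 CPM at 48 h and 28.7 ± 25.8 CPM at 72 h, against 175 ± 13.1 CPM in controls (log2 fold change -1.89, SE 0.60, adjusted p = 0.0424 at 48 h and log2 fold change -2.60, SE 0.61, adjusted p = 0.011 at 72 h). RBL2, which encodes p130, was the gene that rose: it averaged 108 ± 8.48 CPM at 48 h and 98.9 ± 18.3 CPM at 72 h, against 77.3 ± 7.17 CPM in controls, and was called at 48 h (log2 fold change 0.48, SE 0.15, adjusted p = 0.0384) but not at 72 h (adjusted p = 0.0894). The 48 h call of RBL2 was lost when any one of the control or 48 h libraries was left out. Its relative RBL1 (p107) fell at both times, with log2 fold changes of -1.30 and -1.47. Of the NF-Y subunits, NFYB and NFYC fell at both times (log2 fold changes of -0.49 and -0.70 at 48 h), while NFYA stood at -0.11 and was not called. The plot of fold changes by list sets these lists beside the middle of all tested genes.

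**Figure D5:**
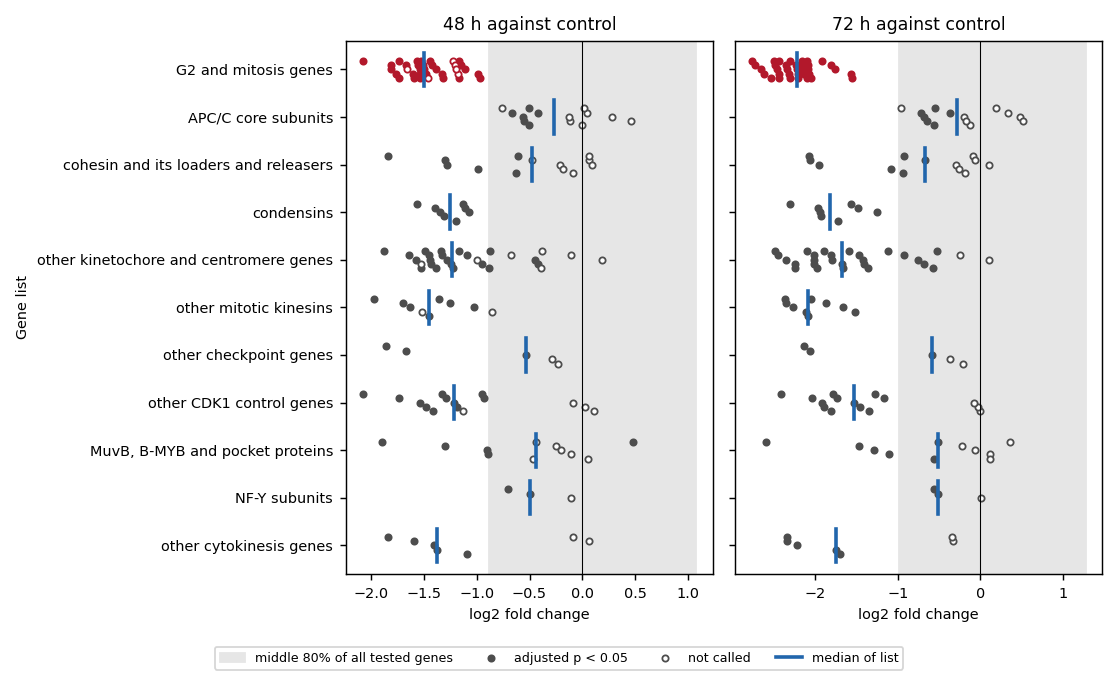
The log2 fold changes of the 35 G2 and mitosis genes (red) and of the 113 genes of the 10 further lists (grey) against control, at 48 h and at 72 h, with filled circles for an adjusted p under 0.05, blue lines for the median of each list and a grey band for the middle 80% of all tested genes. The medians of the condensins, kinesins, kinetochore genes, CDK1 control genes and cytokinesis genes lie below the band at both times, and those of the other lists lie within it.

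Over the 9 libraries, log2 CPM of each of the 35 genes had a Pearson r between 0.954 (ECT2) and 0.998 with the mean of the other 34, a description that rests on the group differences they share, and the median over all genes of at least 10 CPM was 0.0759. Outside the members and the lists, the 5 genes of at least 10 CPM with the highest r to the members' mean over the 9 libraries were DEPDC1B (0.9984), PBK (0.9972), FAM83D (0.9971), ARHGAP11A (0.9968) and SPAG5 (0.9967). DEPDC1B averaged 23.4 CPM at 48 h and 13.3 CPM at 72 h, against 77.9 CPM in controls.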

How the data were processed

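Per the labels' protocols, total RNA from RNeasy columns went into NEBNext Ultra RNA libraries. The authors deposited 1 count of reads per gene and library, not normalized, on hg38, per the submitters' processing notes, which list featureCounts 1.5.0-p1, STAR 2.5.2a, FastQC 0.11.5 and bcl2fastq 2.17.1.14. How strand and multiply aligned reads were handled, and which annotation was used, is not given in the sources used here. Genes that overlap, on either strand, may therefore share reads.

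Symbols and coordinates came from GENCODE 29, which held 57895 of the 58233 identifiers and lacked 338. Genes were tested with edgeR 4.0.16 (R 4.3.3): TMM scaling, filterByExpr, all 9 libraries in 1 model of group, robust quasi-likelihood F tests, and Benjamini and Hochberg adjusted p-values over all tested genes with a threshold of 0.05. CPM uses TMM-scaled library sizes, except for the cell type markers, whose CPM uses the raw library totals. Standard errors are approximate and divide the log2 fold change by the root of F. Alternatives were DESeq2 1.42.0, other scalings and filters, a replicate block, only the 2 groups compared, and each library left out. Promoters came from RefSeq. The 35 genes, the further lists and the tests were chosen with earlier results of these data known.

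Same-numbered libraries share a passage per the labels, which is where the pairing comes from. Their deviations from group means were checked and had correlations of 0.11, 0.078 and 0.12 for 48 h and control (replicates 1, 2 and 3), of 0.038, 0.11 and 0.10 for 72 h and control, and of -0.025, 0.49 and 0.49 for 72 h and 48 h. All pairs of replicates differed beyond sampling noise. Values in every library are given for the member with the largest mean change in each role, for FOXM1, CDK1, CCNA2, CCNB1, PLK1, AURKA, AURKB, CDC20, CENPF, MKI67 and TOP2A, and for members that missed the threshold at 1 time. In the further lists, the 2 lowest genes and the highest by mean change could be named.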

Additional observations from a re-analysis of the deposited data

How the results depend on the processing

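At 48 h, 29 of the 35 genes were called. DESeq2 and the fit of only the 2 groups called 35, the scalings and the filter of 1 CPM gave 27 to 30, no filter on low counts gave 11 (losses named in the report) and the replicate block 16. Of all genes, 16% were called lower in the main fit, 16.8% with DESeq2 and 20.1% with only the 2 groups. The shares were 15.3% with DESeq2 size factors, 14.3% with upper quartiles and 18% with the filter of 1 CPM. They were 6.15% with no filter and 16.5% with the block. Omitting 1 library gave 4 to 35 members and 22 to 82 of the 113 further genes, and the members' median ran from -1.66 to -1.36. In these fits 2631 to 6289 of all genes were called in either direction, and 8.45% to 20.1% were called lower. At 72 h the omissions gave 34 to 35 members, 78 to 85 further genes and a median of -2.79 to -1.87. Of all genes, 4111 to 6184 were called in either direction at 72 h, and 13% to 18.9% were called lower. Without a filter the 72 h calls of AURKB (adjusted p = 0.132), BIRC5 (0.0547), UBE2C (0.094), ESPL1 (0.0513) and PRC1 (0.0501) were lost. Between 72 h and 48 h, where 0 genes were called, DESeq2 called 50 genes, and no filter called 211 genes, 1 member (CDC25C) and 2 further genes; the median over omissions ran from -1.35 to -0.43. There AURKB reversed to 0.051 without 72 h replicate 3 (and stood at -1.25 without replicate 1), to 0.016 with the block on 72 h replicates 1 and 2 alone, and to 0.047 in passages 12 and 13 alone, where CDC20 reversed to 0.049; the last 2 settings were chosen after seeing the data. All 35 members kept their direction against control at both times in all 16 alternatives other than these 2. The block ended 13 calls of members at 48 h, listed in the report, and changed no other call of a member. With a shorter window that ends at the start, TTTGAA or TTTAAA stood in 86.2% of the members' promoters, and in 28% in place of 52% of the 100 other mitotic genes. The causes were not tested. Depth gave at least 80 counts for every member in every library, the fewest being those of CENPA.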
